A study of Homo sapiens with 15 samples.

Results

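YAP1 and WWTR1 (the gene of TAZ) encode the transcriptional coactivators of the Hippo pathway, TEAD1 encodes a DNA-binding partner that brings them to their target genes, and CCN1, CCN2, ANKRD1, AMOTL2, AJUBA, LATS2 and AXL are genes widely used to read out their activity. These 10 genes were taken by symbol from the 59608 genes of the expression table, and all 10 were among the 13561 genes tested. RNA was measured in MDA-MB-231, a triple-negative breast cancer cell line with mesenchymal features, grown in 2D culture in 10 cm dishes. The cells received 0.1% DMSO as vehicle or ZJ-101, a truncated version of superstolide A (a macrolide first isolated from a marine sponge), at 0.5, 5, 50 or 500 nM for 6 h, a time chosen by the study to precede the usual change in cell shape. Each of the 5 groups had 3 libraries from separate dishes of this 1 line, so p-values measure the spread between dishes, and all 4 doses were compared with the same 3 DMSO libraries.

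In the Hippo pathway, the kinases MST1/2 and LATS1/2 phosphorylate YAP and TAZ, which keeps them in the cytoplasm. Unphosphorylated YAP and TAZ enter the nucleus, bind TEAD factors and raise the transcription of genes for matrix proteins, cytoskeletal proteins and negative regulators of the pathway itself. Cell attachment, spreading and actin tension act on this step, and the activity of YAP and TAZ is set to a large part by location and phosphorylation, which an RNA measurement does not see.

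At 500 nM, 6 of the 10 genes passed the test against DMSO, as did 17.8% of all tested genes and 26.0% of those at least as abundant as LATS2, the lowest of the 10. WWTR1 and the targets CCN1, CCN2 and ANKRD1 were lower, by 14.7% to 26.0% of the DMSO mean, while AJUBA and AXL were higher by 14.9% and 16.3%. YAP1, TEAD1, AMOTL2 and LATS2 did not pass at this dose. The genes did not follow 1 course over the doses: CCN1 was already lower at 50 nM, CCN2 and ANKRD1 stepped down between 50 and 500 nM, and AMOTL2 was lower at 0.5 and 5 nM but near the DMSO level at the higher doses. The CCN1 call at 50 nM and the AMOTL2 calls at 0.5 and 5 nM were lost when certain single libraries were left out.

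Each library held 12415519 to 15284762 recovered reads. Those at 50 nM, with 12415519 to 12623863, had fewer than every library of the other groups. Mitochondrial genes took 0.889% to 2.06% of the reads, and this share at each dose overlapped that of DMSO. Replicates were compared by chi-square per degree of freedom, where sampling noise alone gives about 1. The pairs that held 0.5 nM replicate 2 differed by 10.2 and 15.2 and the other 13 pairs by 1.96 to 5.81, so this library stood apart and no 2 libraries were copies of each other. VIM, the mesenchymal intermediate filament, lay between 13433 and 18414 normalized counts, and CD44, FN1, EGFR and KRT18 were also abundant. Of 4 genes of hormone-responsive or epithelial cells, ESR1 lay between 0 and 4.30, at 0 in 10 of the 15 libraries, PGR between 5.37 and 17.3, CDH1 between 107 and 206 and EPCAM between 266 and 320.2 normalized counts, so only the first was at 0 in any library. Of 4 markers of fibroblasts or leukocytes, PDGFRA, DCN and PTPRC were at 0 in 8, 9 and 5 libraries and at most at 3.53, whereas COL1A1 lay between 165 and 224 and made up nearly all of their summed level, which was 195 to 228 in DMSO and 187 to 218 at 500 nM. In bulk RNA, fewer cells with a transcript and less of it per cell cannot be told apart.

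The promoters of CCN2 and ANKRD1 are shown because these genes had the largest falls at 500 nM among the 10 and because the 6-letter core that TEAD factors bind, GGAATG read on either strand, occurs in both windows. The sequences are the 250 bases before the annotated start, 5′ to 3′ on the strand of the gene, from RefSeq on GRCh38.p14, and capitals mark matches to the TEAD core or to the AP-1 motif, spelled out with the counts. CCN2 lies at chr6:131951373-131951622 on the minus strand and ANKRD1 at chr10:90921088-90921337 on the minus strand.
CCN2: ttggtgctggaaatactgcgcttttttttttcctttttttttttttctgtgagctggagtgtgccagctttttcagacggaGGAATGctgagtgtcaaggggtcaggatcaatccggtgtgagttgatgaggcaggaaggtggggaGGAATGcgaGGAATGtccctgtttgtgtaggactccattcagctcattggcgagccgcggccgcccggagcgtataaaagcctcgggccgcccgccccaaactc
ANKRD1: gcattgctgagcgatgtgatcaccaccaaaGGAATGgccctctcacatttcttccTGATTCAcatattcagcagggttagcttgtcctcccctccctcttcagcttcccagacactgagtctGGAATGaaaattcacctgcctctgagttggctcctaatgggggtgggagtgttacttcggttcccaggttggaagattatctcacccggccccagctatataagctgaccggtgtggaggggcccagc

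The CCN2 window held 3 TEAD cores, at 169 to 164, 104 to 99 and 95 to 90 bases before the start. The ANKRD1 window held 2 TEAD cores, at 220 to 215 and 128 to 123 bases, and 1 match to the AP-1 motif (TGANTCA) at 195 to 189 bases. RefSeq promoters matched 8 of the 10 genes with 12 windows, since WWTR1, AMOTL2, AJUBA and AXL each have more than 1 start. A single TEAD core was found before the YAP1 start and in 1 of the windows of AMOTL2, AJUBA and AXL, and none in the windows of WWTR1 and LATS2. Searched on both strands, this core occurs in 11.9% of all 34943 windows of this length, the AP-1 motif in 6.59% and the CArG box of SRF in 1.17%. No CArG box was found before the 8 genes. A match says only that these letters are present, and no match says only that they are absent from these 250 bases.

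Levels between genes were compared per kilobase of merged exons in DMSO. ANKRD1, which encodes a cardiac ankyrin repeat protein, had the highest level with 5624 ± 103 normalized counts per kb (SD, n = 3), followed by CCN1 with 3436 ± 157 and AXL with 2379 ± 11.1. CCN2 had 915 ± 65.3, AJUBA 541 ± 13.7 and YAP1 496 ± 19.3 normalized counts per kb. The lowest were AMOTL2 at 374 ± 9.79, TEAD1 at 343 ± 9.60, WWTR1 at 327 ± 10.1 and LATS2 at 113 ± 7.01 normalized counts per kb. TEAD1 and WWTR1 were the only neighbors in this order whose DMSO libraries overlapped.

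The coactivator genes came first in the pathway order. YAP1 (chromosome 11, 102110447 to 102233424, plus strand) had 2993, 3159 and 3231 normalized counts in DMSO and 2995, 2866 and 2657 at 500 nM. The groups overlapped in that 1 library at 500 nM (2995) lay just above the lowest DMSO library. The log2 fold change at 500 nM was -0.14 (95% confidence interval -0.27 to -0.02), which did not pass after adjustment by limma with the Benjamini-Hochberg method (adjusted p = 0.12). With the 500 nM and DMSO libraries fitted alone the adjusted p was 0.035, and without 0.5 nM replicate 2 it was 0.043. At the lower doses YAP1 had means of 3131 ± 235, 3069 ± 147 and 2961 ± 146 (SD, n = 3), within the DMSO spread at 0.5 and 5 nM.

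WWTR1 (chromosome 3, 149517235 to 149736714, minus strand) had 2641, 2802 and 2762 normalized counts in DMSO. It had 2428, 2501 and 2493 at 50 nM and 2354, 2379.8 and 2261 at 500 nM. Every library at 50 nM lay below every DMSO library, and every library at 500 nM lay below those at 50 nM, while 0.5 and 5 nM overlapped DMSO. The fall at 500 nM was -0.23 on the log2 scale (SE 0.05, adjusted p = 0.0015, limma), or 14.7% of the DMSO mean of 2735 ± 84.0. At 50 nM the log2 fold change of -0.14 did not pass (adjusted p = 0.077), although it did with that dose and DMSO alone (0.035) and without 0.5 nM replicate 2 (0.03). The call at 500 nM held under every alternative run, between -0.25 and -0.21 when single libraries were left out. Exons of WWTR1 share 9.05% of their bases with the antisense gene WWTR1-AS1, and those of YAP1 share 10.1% with 2 genes on the annotation. Whether reads in these shared bases were counted, and for which gene, is not known. The strandedness of the counting is not given in the sources used here.

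TEAD1 (chromosome 11, 12674421 to 12944737, plus strand), the DNA-binding partner, had 3575, 3651 and 3778 normalized counts in DMSO and 4264, 3853 and 3813 at 500 nM. The 500 nM libraries were all above those of DMSO, yet the log2 fold change of 0.12 (95% confidence interval -0.05 to 0.28) did not pass (adjusted p = 0.38, limma). Its spread was set largely by 1 library: at 0.5 nM the values were 3585, 2826 and 3679.8, and the low one was replicate 2, the library that stood apart. The log2 fold change at 0.5 nM was -0.13 with that library and -0.01 without it.

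**Figure D1:**
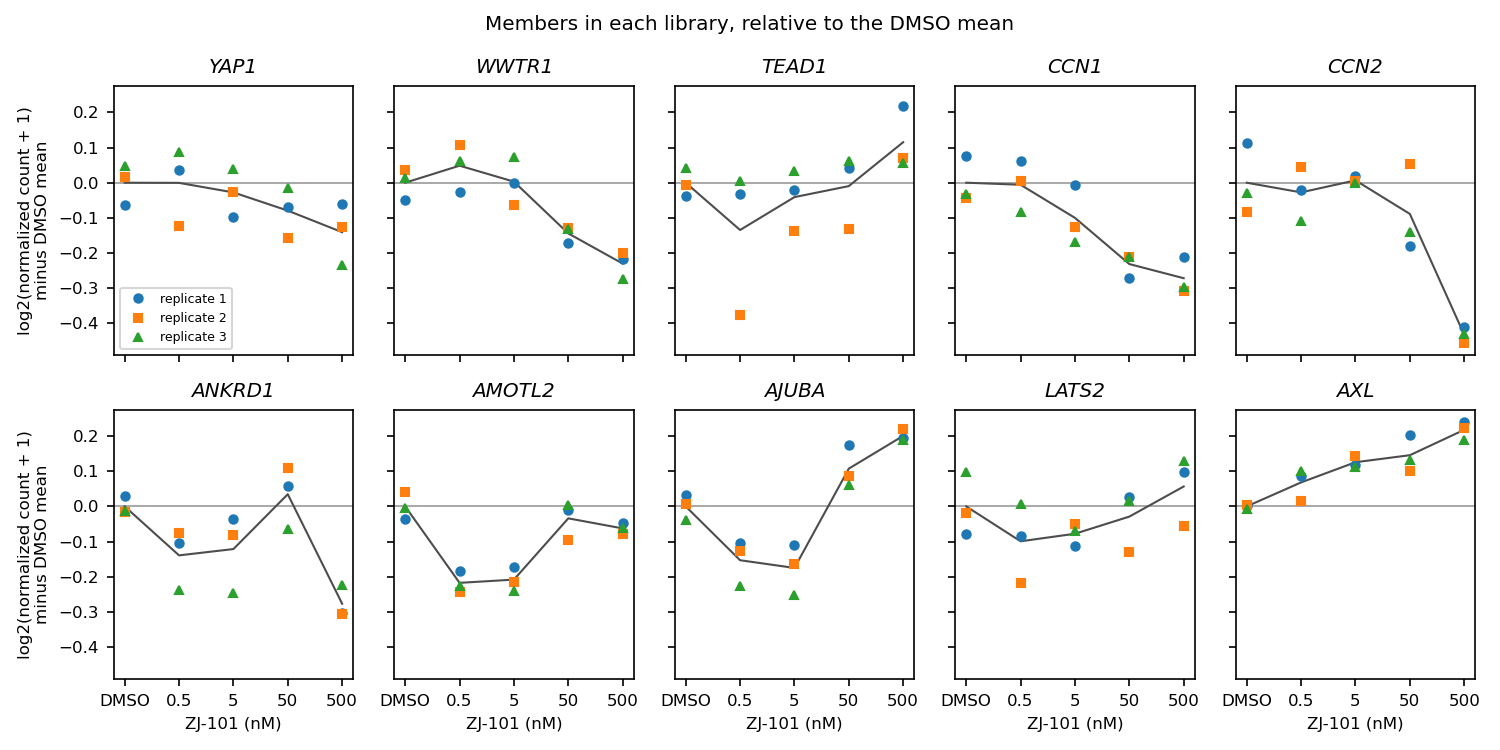
Each panel shows 1 gene. The vertical axis is log2(normalized count + 1) minus the DMSO mean, the horizontal axis is DMSO and the ZJ-101 dose in nM, points are the 3 libraries of a group and the line joins group means. CCN2 lies near DMSO up to 50 nM and drops at 500 nM, AMOTL2 and AJUBA dip at 0.5 and 5 nM, and AXL lies above DMSO in all 12 treated libraries.

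CCN1 (CYR61) and CCN2 (CTGF) encode secreted matricellular proteins that bind integrins, and both are standard targets of YAP and TAZ. CCN1 (chromosome 1, 85580761 to 85584589, plus strand) had 13373, 12326 and 12421 normalized counts in DMSO and 13253, 12745 and 11975 at 0.5 nM. It had 12639.7, 11636 and 11308 at 5 nM, 10516, 10974 and 10968 at 50 nM, and 10974, 10258 and 10342 at 500 nM. Libraries of 50 and 500 nM lay below all of those at 5 nM, 0.5 nM and DMSO, and overlapped each other. The log2 fold change was -0.23 at 50 nM (SE 0.05, adjusted p = 0.0082, limma) and -0.27 at 500 nM (SE 0.05, adjusted p = 0.00089), a fall of 17.2% at the top dose. The 50 nM call was lost without DMSO replicate 1 (adjusted p = 0.065), the highest of the DMSO libraries. At 5 nM the value of -0.10 did not pass (adjusted p = 0.44).

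CCN2 (chromosome 6, 131948176 to 131951372, minus strand) had 2310.2, 2016 and 2091 normalized counts in DMSO and 1887, 2214 and 1939 at 50 nM. At 500 nM it had 1608, 1557 and 1584, below each of the other 12 libraries. The fall was -0.43 on the log2 scale (95% confidence interval -0.56 to -0.31, adjusted p = 3.6e-05, limma), or 26.0%, the largest among the 10 genes. The means at 0.5 nM (2097 ± 111), 5 nM (2145 ± 15.3) and 50 nM (2013 ± 176; SD, n = 3) were within 0.09 of DMSO on the log2 scale and did not pass. Exons of CCN2 share 11.9% of their bases with LINC01013 on the annotation.

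ANKRD1 (chromosome 10, 90912096 to 90921087, minus strand) had 10280.4, 9953 and 9968 normalized counts in DMSO and 9362, 9560.2 and 8531 at 0.5 nM. It had 9825, 9509 and 8483 at 5 nM and 10484, 10849.7 and 9634 at 50 nM. At 500 nM it had 8161, 8147 and 8629.7, below all DMSO and 50 nM libraries but overlapping replicate 3 of 0.5 nM and of 5 nM. The fall at 500 nM was -0.28 (SE 0.06, adjusted p = 0.0021, limma), or 17.4%. All libraries at 0.5 and 5 nM also lay below DMSO, with log2 fold changes of -0.14 and -0.12 that did not pass (adjusted p = 0.27 and 0.39), although the first did with length and GC trends removed (-0.19, adjusted p = 0.047). The mean at 50 nM was 10323 ± 623, against 10067 ± 185 in DMSO, so the levels of ANKRD1 did not follow the order of the doses.

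AMOTL2, AJUBA and LATS2 act back on the pathway: angiomotin-like 2 holds YAP in the cytoplasm and at junctions, the LIM protein Ajuba binds and restrains LATS kinases, and LATS2 is one of the kinases that phosphorylate YAP and TAZ. AMOTL2 (chromosome 3, 134355347 to 134375479, minus strand) had 2367, 2493 and 2416 normalized counts in DMSO. It had 2137, 2047 and 2073 at 0.5 nM and 2153, 2090.2 and 2054 at 5 nM. These 6 libraries lay below all 9 others, since the lowest value at 50 and 500 nM was 2267. The fall was -0.22 at 0.5 nM (SE 0.04, adjusted p = 0.014, limma) and -0.21 at 5 nM (SE 0.04, adjusted p = 0.010), and these were the only calls among the 10 genes at either dose. Both depended on the libraries: the 0.5 nM call was lost without DMSO replicate 1, 2 or 3 (adjusted p of 0.054, 0.095 and 0.062) and with the 0.5 nM and DMSO libraries alone (0.16), and the 5 nM call without DMSO replicate 2 (0.075) or 5 nM replicate 2 (0.054). At 500 nM, with 2345, 2298 and 2322 normalized counts, the log2 fold change was -0.06 (95% confidence interval -0.15 to 0.02, adjusted p = 0.34).

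AJUBA (chromosome 14, 22971177 to 22982551, minus strand) had 3259, 3197 and 3098 normalized counts in DMSO and 2961, 2916 and 2719 at 0.5 nM. It had 2953, 2839.8 and 2675 at 5 nM, 3591, 3380.4 and 3324 at 50 nM, and 3644, 3706 and 3627 at 500 nM. All libraries at 0.5 and 5 nM lay below DMSO, those at 50 nM above it and those at 500 nM above those at 50 nM. The rise at 500 nM was 0.20 (SE 0.05, adjusted p = 0.0049, limma), or 14.9%, and held under every alternative run. The value at 5 nM was -0.17 with an adjusted p of 0.059, which passed when recovered reads were tested with DESeq2 (0.026) and without 0.5 nM replicate 2 (0.024). At 50 nM it was 0.11 (adjusted p = 0.23).

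LATS2 (chromosome 13, 20973036 to 21061586, minus strand) had 599.6, 624 and 677 normalized counts in DMSO and 677, 609 and 692 at 500 nM. Its libraries overlapped DMSO at every dose, and the log2 fold change at 500 nM was 0.06 (95% confidence interval -0.09 to 0.20, adjusted p = 0.66, limma). It had the fewest reads of the 10 genes.

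AXL (chromosome 19, 41219223 to 41261766, plus strand), a receptor tyrosine kinase bound by GAS6 and abundant in mesenchymal breast cancer cells, had 12232, 12257 and 12148 normalized counts in DMSO. It had 12978, 12347 and 13098 at 0.5 nM, 13261, 13498 and 13210.3 at 5 nM, 14056, 13097 and 13389 at 50 nM and 14423, 14257 and 13928 at 500 nM. The lowest treated library, 12347, lay above the highest DMSO library. The rise was 0.22 at 500 nM (SE 0.04, adjusted p = 0.00059, limma), or 16.3%. At 50 nM it was 0.15 (SE 0.04, adjusted p = 0.032), a call that was lost with no filter on low values (0.10), without any of DMSO replicates 1 to 3 (0.097, 0.099 and 0.11) and without 50 nM replicate 1 or 3 (0.16 and 0.074). At 5 nM the log2 fold change of 0.13 did not pass (adjusted p = 0.12), although it did with that dose and DMSO alone (0.021), without 0.5 nM replicate 2 (0.036) and with DESeq2 (0.027).

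Counted together, 1 of the 10 genes passed at 0.5 nM, against 1.17% of all tested genes (0.922% called lower), and 1 at 5 nM, against 2.18% (1.71% called lower). At 50 nM 2 passed (1 lower, 1 higher), against 6.00% (3.71% lower and 2.29% higher), and at 500 nM 6 passed (4 lower, 2 higher), against 17.8% (10.1% lower and 7.69% higher). Abundant genes are called more often, and among the 5141 tested genes with a mean at least that of LATS2 the shares called at the 4 doses were 1.79%, 3.33%, 9.30% and 26.0%. By DMSO level LATS2 lay above 62.8% of tested genes, and the other members above 89.4% (CCN2) to 99.4% (CCN1 and AXL). Most of the 10 were thus well above this floor. The libraries did not overlap DMSO for 4 of the 10 genes at 0.5, 5 and 50 nM, against 18.1%, 23.2% and 24.8% of all tested genes, and for 8 of 10 at 500 nM, against 38.5%. The median log2 fold change of the 10 genes was -0.10 at 500 nM and 0.00266 over all tested genes.

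**Figure D2:**
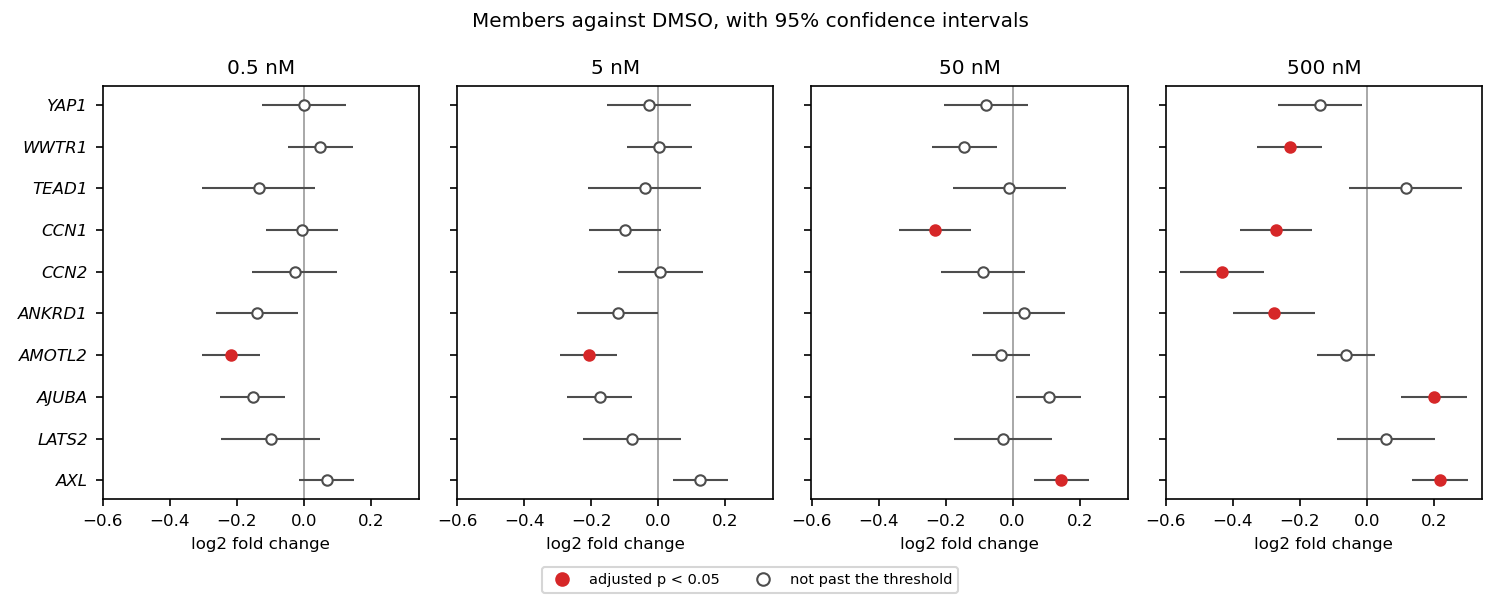
Log2 fold changes of the 10 genes against DMSO at each ZJ-101 dose, on the log2(normalized count + 1) scale, with bars for the 95% confidence interval and filled points for an adjusted p below 0.05. AMOTL2 is the filled point at 0.5 and 5 nM, CCN1 and AXL are filled at 50 nM, and at 500 nM CCN2 lies farthest to the left at -0.43.

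Neighboring doses were compared to place each change. Between 0.5 and 5 nM, 0 of the 10 genes passed in limma, 0 had an unadjusted p under 0.05, and edgeR and DESeq2 on recovered reads also called 0, against 0.118% of all tested genes in limma. Between 5 and 50 nM, the feedback genes AJUBA and AMOTL2 rose, by 0.28 (SE 0.05, adjusted p = 0.00099, limma) and 0.17 (SE 0.04, adjusted p = 0.016), against 5.01% of all tested genes called (2.62% higher). The AMOTL2 call was lost without 5 nM replicate 2 or 3 (0.064 and 0.083) and without 50 nM replicate 1 or 3 (0.073 and 0.084). CCN1 and WWTR1 had -0.13 and -0.15 in this step and did not pass (adjusted p = 0.18 and 0.080). WWTR1 did pass without 0.5 nM replicate 2 (0.03). ANKRD1, at 0.16, and the feedback gene LATS2, at 0.05, did not pass either (adjusted p = 0.15 and 0.79, limma). Between 50 and 500 nM, CCN2 fell by 0.34 (SE 0.06, adjusted p = 0.0032, limma) and ANKRD1 by 0.31 (SE 0.06, adjusted p = 0.0055), against 2.28% of all tested genes called (1.80% lower). Both calls held under every alternative run.

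**Figure D3:**
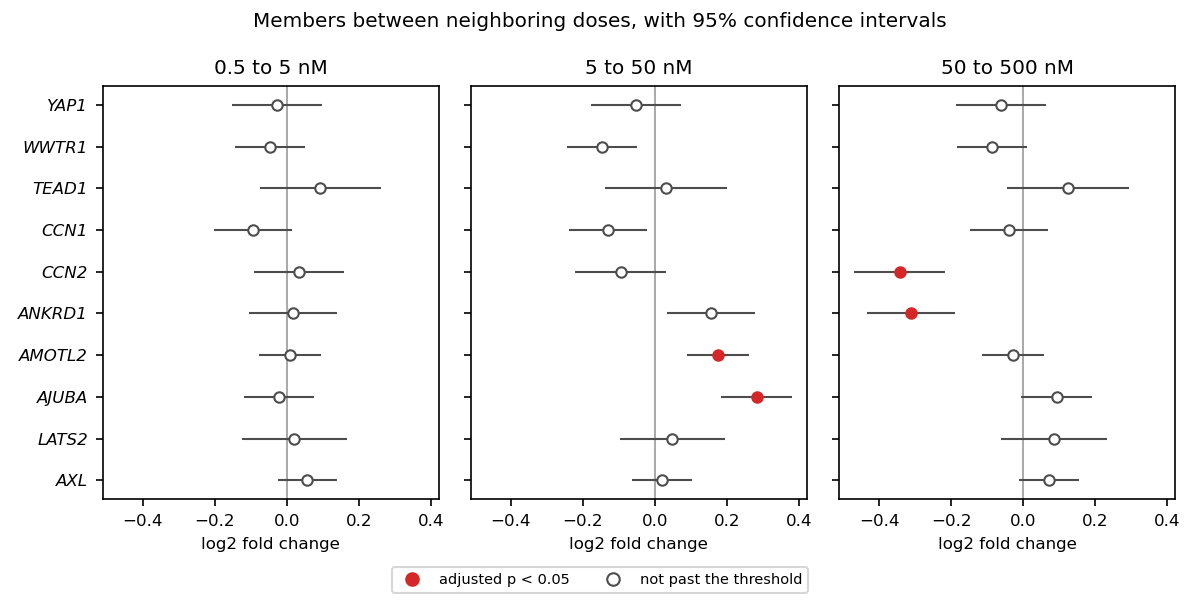
Log2 fold changes of the 10 genes between neighboring ZJ-101 doses, higher dose against lower dose, with 95% confidence intervals and filled points for an adjusted p below 0.05. AJUBA and AMOTL2 are filled to the right between 5 and 50 nM, and CCN2 and ANKRD1 to the left between 50 and 500 nM.

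A linear trend over dose ranks, from 0 for DMSO to 4 for 500 nM, passed for 5 genes, 3 falling and 2 rising, against 17.6% of all tested genes (9.33% falling and 8.23% rising). Per rank step, CCN2 changed by -0.09 (adjusted p = 0.0030, limma), CCN1 by -0.08 (0.00015) and WWTR1 by -0.07 (0.0011), while AJUBA changed by 0.07 (0.028) and AXL by 0.05 (0.00054). The AJUBA slope was lost without any 1 of the 500 nM replicates (adjusted p of 0.082 to 0.095). YAP1 had -0.04 (0.067), ANKRD1 -0.04 (0.21), TEAD1 0.04 (0.25), LATS2 0.02 (0.51) and AMOTL2 0.01 (0.86), and these did not pass. The YAP1 trend did pass with length and GC trends removed (0.024), without DMSO replicate 1 (0.042) and without 0.5 nM replicate 2 (0.024). It also passed with DESeq2 (0.05 after rounding, under the threshold before it). Over the 12 treated libraries alone, the AMOTL2 slope was 0.06 (adjusted p = 0.011).

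Other genes of the Hippo pathway were taken from a list of 36 upstream kinases, adaptors, polarity proteins, TEAD paralogs and VGLL cofactors, of which 33 were tested. In limma 0 of them passed at 0.5, 5 or 50 nM, edgeR and DESeq2 also called 0 at these doses, and 4, 5 and 4 had an unadjusted p under 0.05, where 1.17%, 2.18% and 6.00% of all tested genes passed. With only the dose compared and DMSO in the fit, 3 passed at 5 nM and 2 at 50 nM, in fits that called 846 and 1120 of the 13561 genes, and 1 passed at 0.5 nM without replicate 3 of that dose and 1 at 5 nM without 0.5 nM replicate 2. At 500 nM 3 were higher and 1 lower, against 7.69% and 10.1% of all tested genes, with a list median of -0.01. TEAD2, a paralog of TEAD1, had 318 ± 21.3 normalized counts in DMSO and 255 ± 7.22 at 500 nM (SD, n = 3; log2 fold change -0.32, adjusted p = 0.012, limma). The calls on the higher genes were FAT1, a protocadherin that acts on the pathway from the cell surface, at 0.57 (adjusted p = 0.030), NF2, which encodes the scaffold merlin, at 0.33 (0.032), and STK4, which encodes the kinase MST1, at 0.22 (0.031). All 4 calls were lost under some alternatives. The TEAD2 call was lost with DMSO replicate 1 left out (adjusted p = 0.064). It was also lost with 500 nM replicate 2 left out (0.05 after rounding, not under the threshold before it). The FAT1 call was lost without any 1 of the DMSO replicates (0.062 to 0.087) and without 500 nM replicate 1, which lowered its log2 fold change to 0.38 with an adjusted p of 0.18. The NF2 call was lost without DMSO replicate 2 or 3 or any 1 of the 500 nM replicates (0.055 to 0.13) with DESeq2 (0.061) and with no filter on low values (0.052). The STK4 call was lost without any 1 of the DMSO replicates or 500 nM replicate 1 or 2 (0.051 to 0.13) and with no filter (0.058). The count of the list at 500 nM lay between 1 and 10 over these alternatives. The core kinase genes STK3 and LATS1 had -0.09 and -0.05 and did not pass (adjusted p = 0.41 and 0.69). TEAD3 and TEAD4 had -0.14 and 0.15 (adjusted p = 0.15 and 0.076).

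A list of 27 further target genes of YAP, TAZ and TEAD, all of them tested, is wider than the 7 targets described above. At 0.5 nM 2 passed, both lower, against 0.922% of all tested genes called lower. This count moved in 19 of 26 alternatives, to 0 without any 1 of the DMSO replicates or with that dose and DMSO alone and to 1 with edgeR, TMM scaling or the replicate block. At 5 nM 1 was higher and 4 lower, against 0.465% and 1.71% of all tested genes, a count of 5 that lay between 2 and 7 when single libraries were left out and was 8 with that dose and DMSO alone, a fit that called 846 genes in all against 295. At 50 nM 3 were higher and 7 lower, against 2.29% and 3.71%, a count that lay between 9 and 12 when single libraries were left out. At 500 nM 12 were lower and 4 higher, against 10.1% and 7.69% of all tested genes, and the list median was -0.21. Many of these genes also respond to other factors, such as SMADs or AP-1, so a change in one is not particular to TEAD. The count at 500 nM lay between 14 and 20 when single libraries were left out.

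The 4 largest falls were in CCDC80, THBS1, SLIT2 and CRIM1. CCDC80, a matrix protein, went from 646 ± 21.1 normalized counts in DMSO to 323 ± 3.96 at 500 nM (log2 fold change -0.997, adjusted p = 1.3e-09, limma) and was already lower at 5 nM (-0.29, 0.018) and 50 nM (-0.68, 5.2e-07). THBS1, the matricellular thrombospondin-1, went from 9585 ± 275 to 5015 ± 169 at 500 nM (-0.93, adjusted p = 7.9e-10), with values of -0.16, 0.02 and 0.01 at the lower doses that did not pass. Like CCN2, it stepped down between 50 and 500 nM, by -0.94 (adjusted p = 6.5e-09). SLIT2, a secreted guidance ligand, and CRIM1, a membrane protein that binds BMPs, fell at 500 nM by 0.87 (adjusted p = 3.7e-06) and 0.60 (2.5e-07), and both had also fallen at 50 nM, by 0.67 and 0.54. The lower genes also included the surface proteins F3 and NT5E, and the ligands EDN1, INHBA and TGFB2.

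Against these falls, ASAP1 rose at 500 nM by 0.49 (adjusted p = 0.00016, limma), DLC1 by 0.32 (0.00024) and ARHGAP29 by 0.23 (0.0022). All 3 encode GTPase-activating proteins. ASAP1 and ARHGAP29 were higher at 50 nM as well, by 0.28 (0.037) and 0.22 (0.0059). The calls at 500 nM for CCDC80, THBS1, SLIT2, CRIM1 and these 3 higher genes held under every alternative run. BIRC5, CAV1 and MYOF had -0.11, 0.02 and 0.11 at this dose and did not pass.

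**Figure D4:**
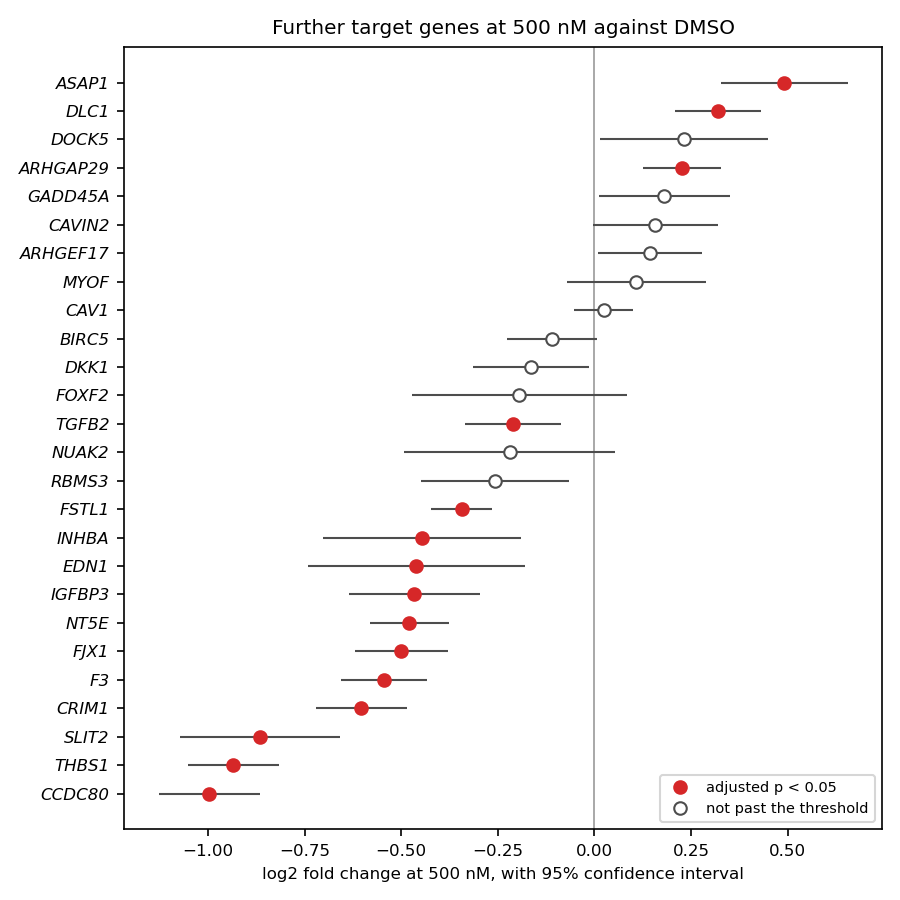
Log2 fold changes of 26 of the 27 further target genes at 500 nM ZJ-101 against DMSO, ordered by size, with 95% confidence intervals and filled points for an adjusted p below 0.05. The 12 filled points on the left run from TGFB2 at -0.21 to CCDC80 at -0.997, and the 3 on the right reach 0.49 for ASAP1.

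Actin cytoskeleton genes driven by MRTF and SRF, a pathway that shares targets with YAP and TAZ, were read from a list of 20, of which 19 were tested. In limma 0 passed at 0.5 and 5 nM, against 1.17% and 2.18% of all tested genes, shares too low to expect a call among 19. At these doses 2 and 0 had an unadjusted p under 0.05 and edgeR and DESeq2 called 0. With replicate 3 of 0.5 nM left out, 1 passed at that dose. At 50 nM 1 gene was higher, against 2.29% of all tested genes, and this count was 0 without DMSO replicate 3 and 2 without 0.5 nM replicate 2, with a filter at a mean of 50, the replicate block, equal totals, length and GC trends removed or DESeq2. At 500 nM 1 was higher and 1 lower, against 7.69% and 10.1%, with a list median of 0.02, and the count was 3 without DMSO replicate 1 or 0.5 nM replicate 2 and 4 with length and GC trends removed. The LIM protein gene FHL2 rose by 0.23 at 50 nM (adjusted p = 0.012, limma) and by 0.41 at 500 nM (1.7e-05). TAGLN2, an actin-binding protein gene, fell by 0.26 at 500 nM (adjusted p = 0.0015).

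Likeness to each gene was measured by Pearson's r of log2(normalized count + 1) over all 15 libraries, which share the doses and the scaling, and serves as a description. The genes nearest to CCN2 were RPN1 (0.943) and PDIA3 (0.930), and those nearest to CCN1 were ID2 (0.933), RSBN1 (0.923) and CTSC (0.916). For AXL they were CIZ1 (0.940), AGPAT4 (0.936) and FGFR1 (0.936), and for AMOTL2 AL355916.1 (0.902), MAL2 (0.894) and TNFRSF21 (0.885). ANKRD1 had no gene with r over 0.9, and its nearest were CXCL1 (0.869), CD55 (0.834) and S100A4 (0.810).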

How the data were processed

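Poly-A RNA from 15 libraries, 3 per group, was sequenced in pairs of 150 bp reads. The authors used HISAT2 for alignment to hg38, htseq-count for counts per gene and DESeq2 for a size factor of each library, so the deposited signal values are counts divided by size factors. The paper states that the GENCODE release current at the time was used. Its number, the strandedness and the tool versions behind the deposited values are not given in the sources used here. The 24 h spheroid experiment was not analysed here. Whole reads were recovered from the smallest step of each library, and 100% of values were whole within 0.001. The 1 line that named no gene was left out.

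limma 3.58.1 in R 4.3.3 was fitted with a trend to log2(normalized count + 1) of 13561 genes, those whose mean was 10 or more, with the 5 groups in 1 fit. Fold changes on this scale are too small for low genes. p was adjusted over all tested genes (Benjamini-Hochberg), and 0.05 was the threshold. The model was tested on simulated data. The 10 genes and the other lists were chosen with earlier results of these data known. Named were all 10 genes, up to 4 rises and 4 falls of each list at 500 nM, and the 3 genes nearest to a member by r. Of these, 1 target gene and 1 gene near CCN2 are not reported here. A few further list genes (STK3, LATS1, TEAD3, TEAD4, F3, NT5E, EDN1, INHBA, TGFB2, BIRC5, CAV1 and MYOF) were named after their values were seen. Alternatives were pseudocounts of 0.5 and 5, filters, a replicate block, TMM and equal-total scaling, fits of the groups compared only, each library left out, and edgeR 4.0.16 and DESeq2 1.42.0 on recovered reads, which called 2432 and 2210 genes at 500 nM against 2409 in limma. A fit with trends on gene length and GC content removed was added after the data were seen. Positions came from GENCODE release 44 on GRCh38, where no member had a near copy (at least 50% coverage and 95% identity, minimap2 2.31-r1302).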

Additional observations from a re-analysis of the deposited data

How the results depend on the processing

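The 6 calls on the 10 genes at 500 nM and the 2 calls between 50 and 500 nM held in every alternative run, and no called result reversed its direction; among uncalled values near 0, the sign moved with the setting. Of 33 calls on single genes, 23 were unchanged in every alternative. The counts at lower doses moved more. At 0.5 nM, 21 genes in all and 0 of the 10 were called with only that dose and DMSO, and 2 of the 10 (AMOTL2 and ANKRD1) with length and GC trends removed. At 5 nM, 846 genes in all and 3 of the 10 were called with only that dose and DMSO, 3 of the 10 with DESeq2 and 2 with equal totals. At 50 nM, 1 of the 10 was called with no filter. The cause was not tested. Leaving out single libraries gave 19 to 391 genes at 0.5 nM, 113 to 623 at 5 nM, 560 to 1276 at 50 nM and 1795 to 3097 at 500 nM. Of the 10 genes it called 0 to 1, 0 to 3, 0 to 3 and 6 to 7 at these doses, 4 to 6 by the slope and 1 to 3 between 5 and 50 nM.

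Over 30 pairs with the same replicate number, the correlation of deviations from the group mean ran from -0.0855 to 0.0961, against -0.13 to 0.123 over the other pairs. No strong shared deviation was thus seen, but this cannot tell whether samples of the same number were handled together. With the replicate number as a block, 2 of the 10 genes were called at 5 nM instead of 1, the added gene being AJUBA (adjusted p = 0.022), and 163, 315, 867 and 2506 genes in all at the 4 doses. With 3 dishes per group, the size of change that passed differed by gene and dose. AXL passed at 50 nM with a rise of 0.15 on the log2 scale, whereas AJUBA did not pass at 5 nM with -0.17. The SE at 500 nM was 0.04 for AXL and 0.08 for TEAD1. Genes that did not pass may thus have changed by more than 0.15. Other scalings moved the median of all genes by at most 0.013.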
